A study of Mus musculus with 15 samples.

Results

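Asns encodes asparagine synthetase, the enzyme that makes asparagine (Asn) from aspartate with glutamine (Gln) as the donor of the amide nitrogen. It was chosen by its symbol and is 1 of 55291 genes in the tables of bulk RNA sequencing (RNA-seq) described here. RNA was measured in 15 samples of HY19636, a murine pancreatic ductal adenocarcinoma (PDAC) line, in 5 groups of 3. In culture, all groups were HY19636 cells. DON cells received the Gln analog 6-diazo-5-oxo-L-norleucine (DON) at 25 µM for 24 h, and Gln-free cells were kept in medium without Gln for 24 h. Control cells were those labelled as controls, without DON and with no time given. The tumors were grown from HY19636 cells in the pancreas of female B6J mice that were 8 to 10 weeks old. Mice were injected intraperitoneally with vehicle or with DRP-104 (3 mg per kg), which releases DON in the body. They were dosed on 5 days and rested for 2 days in each of 2 cycles, and the tumors were taken on day 21 after transplantation. All 5 groups share the same line, which comes from a mouse with Cre driven by Ptf1a and carries a p53 mutation, so results from it are those of 1 line. The labels do not say whether the 3 samples of a culture group came from separate experiments, so their spread may be technical. The limma p-values rest on this spread and on that of the other genes tested, toward which the variance of each gene was moved.

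Asparagine synthetase belongs to the glutamine amidotransferases, enzymes that strip the amide nitrogen from Gln and pass it to another molecule, and it is among the enzymes that DON can inactivate. Its transcript is a classic readout of amino acid shortage: when amino acids run low, the kinase GCN2 phosphorylates the initiation factor eIF2alpha, the transcription factor ATF4 is translated, and ATF4 binds an element near the start of the gene. The same route raises amino acid transporters, tRNA synthetases and feedback regulators such as CHOP and TRIB3. In the pancreas, Asns is also transcribed by normal acinar cells.

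Asns (ENSMUSG00000029752) lies on the minus strand of chromosome 6, from 7675169 to 7693254, in the GRCm38 coordinates of the authors' FPKM table. The annotation (GENCODE M21, GRCm38) lists 7 transcripts, of which Asns-201 and Asns-202 have 12 exons each, and no other gene overlaps it. The element through which amino acid shortage acts on the human gene starts with the letters TGATGNAA and is followed by GTTACA, and both were looked for on either strand of the RefSeq promoter windows (GRCm38.p6, 250 bases before to 50 after each annotated start). The mouse Asns window held both motifs on the sense strand. They are shown here 5′ to 3′ with the motif in capitals, because the element is the described point of entry of ATF4.
Asns, chr6:7693216-7693241: ccagccacaTGATGAAActtcccgca
Asns, chr6:7693198-7693221: cccgcacgcGTTACAgaagcccgg
TGATGNAA stands at bases 7693225 to 7693232 and starts 23 bases before the RefSeq start. GENCODE places the end of the gene 22 bases further upstream, so that in its transcript Asns-201 both motifs fall in exonic, untranslated sequence. Of 32851 promoter windows, 3.97% held TGATGNAA and 8.25% held GTTACA on either strand. The lists were counted by gene, where any window of a gene could hold the motif, so their counts and these shares differ in unit. Among 29 amino acid response targets with a window, 2 held GTTACA. Of the same 29, 10 held TGATGNAA, and the 3 of these whose transcripts are described below are shown. The letters follow the sense strand of each gene, and in all 3 the capitals mark a motif that is read on the opposite strand.
Trib3, chr2:152344030-152344055: agctcaggtTTACATCAgccgggcgg
Atf3, chr1:191183427-191183452: ttctcgcacTTGCATCAccaagtccg
Pck2, chr14:55540154-55540179: ccttcaaagTTACATCAgtatcttac
Asns was the only one of 9 amidotransferases with a window to hold TGATGNAA. A match of letters is a description of the window and was not tested for binding.

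The 9 culture libraries held 25.2 to 48.2 M (mega) reads and the 6 tumors 16.3 to 20.7 M. Among whole counts of 1 to 20 per gene, 69.6% to 72.7% were even numbers in culture libraries and 41.9% to 46.5% in tumors. A count may thus not stand for the same unit in cells and tumors, and why was not tested. Deposited values, called normalized counts here, are counts per gene over the size factor of the library, with 1 table per comparison. Both culture tables hold the same 3 control libraries, so that the comparisons with DON and without Gln share their controls. They were compared as log2(value + 1) with limma over all genes with a mean of at least 10, and a gene was called where the adjusted p-value lay under 0.05. A log2 fold change on this scale understates the change of genes with low values. The labelled tissue was checked by marker lists. All 7 epithelial markers were detected in the tumors and the cells, and in the cultures 4 of 7 fibroblast markers (Col1a2, Col3a1, Dcn and Lum) had at most 3 reads in every library. The summed acinar markers stood at 10.1 to 141 reads per M reads in the 6 tumors, and 7 of the 13 acinar markers had at most 3 reads in every culture library.

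In cultured cells, Asns transcripts rose after DON and, to a lesser extent, without Gln. The 3 DON libraries had 16430, 15802 and 15414 normalized counts of Asns. The 3 control libraries had 4772, 4105 and 3290 in the same table. The groups lay apart, as they did in this direction for 35.3% of genes, and the DON libraries were closer to each other than the controls were. The means were 15882 ± 513 (SD, n = 3) and 4056 ± 742, a log2 fold change of 1.99 (standard error 0.117, 95% interval 1.73 to 2.24, limma adjusted p = 3.43e-09), or 3.96-fold. DON raised 33.3% of the 13556 genes tested and lowered 34.7%, so a call by itself did not set Asns apart, and by size of the log2 fold change it ranked 480 from the top. The two-sided exact permutation test gave p = 0.1, the smallest that 3 against 3 libraries allow.

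Without Gln, the 3 libraries had 8740, 8663 and 7512 normalized counts of Asns. The same control libraries had 4498, 3877 and 3173 in this table. Again every treated library stood above every control library, as was the case for 36.4% of genes. The means were 8305 ± 688 (SD, n = 3) and 3850 ± 663, a log2 fold change of 1.12 (standard error 0.118, 95% interval 0.87 to 1.38, limma adjusted p = 2.59e-06), or 2.17-fold. Of 13390 genes tested, 34.5% were called higher and 34.9% lower without Gln, and Asns ranked 1634 by log2 fold change. The exact permutation p was again 0.1.

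DON raised Asns more than Gln withdrawal did. With the 9 culture libraries scaled together, the log2 difference between DON and Gln-free cells was 0.90 (standard error 0.107, 95% interval 0.67 to 1.13, limma adjusted p = 2.89e-06), or 1.86-fold. In this comparison 31% of the 13514 genes tested were called higher and 32.3% lower in DON cells. The difference of the separate log2 fold changes, each from its own table, was 0.86.

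In the tumors, no change of Asns was called. The 3 DRP-104 tumors had 696, 760 and 504 normalized counts. The 3 vehicle tumors had 408, 624 and 533. The groups overlapped, since DRP-104 tumor 3 lay below vehicle tumors 2 and 3. The means were 653 ± 133 (SD, n = 3) and 522 ± 109, a log2 fold change of 0.32 (standard error 0.228, limma adjusted p = 0.919). The 95% interval ran from -0.20 to 0.85, that is from 0.871-fold to 1.80-fold, which leaves room for no change and for a rise, and its upper end lies below the lower end of the interval for DON in cells. The two-sided exact permutation p was 0.3. Of 15454 genes tested in the tumors, 0 were called by limma (0% background) and 0 by edgeR, 60 were called by DESeq2, and 775 had an unadjusted limma p-value under 0.05. Asns was called by none of these tools.

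The value in tumors rested on single libraries. Without DRP-104 tumor 3 the log2 fold change of Asns was 0.50 (unadjusted p = 0.0427, limma adjusted p = 0.828), and without vehicle tumor 1 it was 0.16 (limma adjusted p = 0.946). DRP-104 tumor 3 also stood apart by its T cell markers. The 9 listed markers summed to 1579 normalized counts there and to 108 to 183 in the other 5 tumors. Acinar markers, the list of a cell type that transcribes Asns, summed to 182 to 2676 normalized counts in vehicle tumors and 218 to 1065 in DRP-104 tumors. They were highest in vehicle tumor 3, which was the middle of the vehicle tumors in Asns. Fibroblast markers summed to 39031 to 82817 in vehicle tumors and 18469 to 32268 in DRP-104 tumors without overlap. Endothelial markers summed to 1800 to 2046 and 1122 to 1560, also without overlap, as was the case for 10.6% of single genes. Epithelial markers summed to 98489 to 140945 and 111094 to 146007. None of the 7 fibroblast and 5 endothelial markers was called by limma, which called 0% of all genes in the tumors. By protein staining, the paper saw no significant change of fibroblast subsets on DRP-104. The part of these cells in the Asns values was not tested, and in bulk RNA fewer cells of a type cannot be told apart from less RNA per cell.

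The authors also deposited FPKM values (fragments per kilobase and per M fragments) for DRP-104 and vehicle tumors, whose columns could not be matched to the tumors above. Over 10277 genes, deviations from the gene mean in columns and tumors of the same name correlated at 0.084 at most. In the 3 DRP-104 columns Asns had 14.3, 13.2 and 14.2 FPKM. In the 3 vehicle columns it had 12.1, 12.9 and 11.2 FPKM. Here every DRP-104 column stood above every vehicle column, as it did for 9.61% of the genes in that table. The means were 13.9 ± 0.626 and 12.1 ± 0.826 FPKM (SD, n = 3), a log2 fold change of 0.19 on the log2(FPKM + 1) scale (limma adjusted p = 0.630), with an exact permutation p of 0.1.

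**Figure D1:**
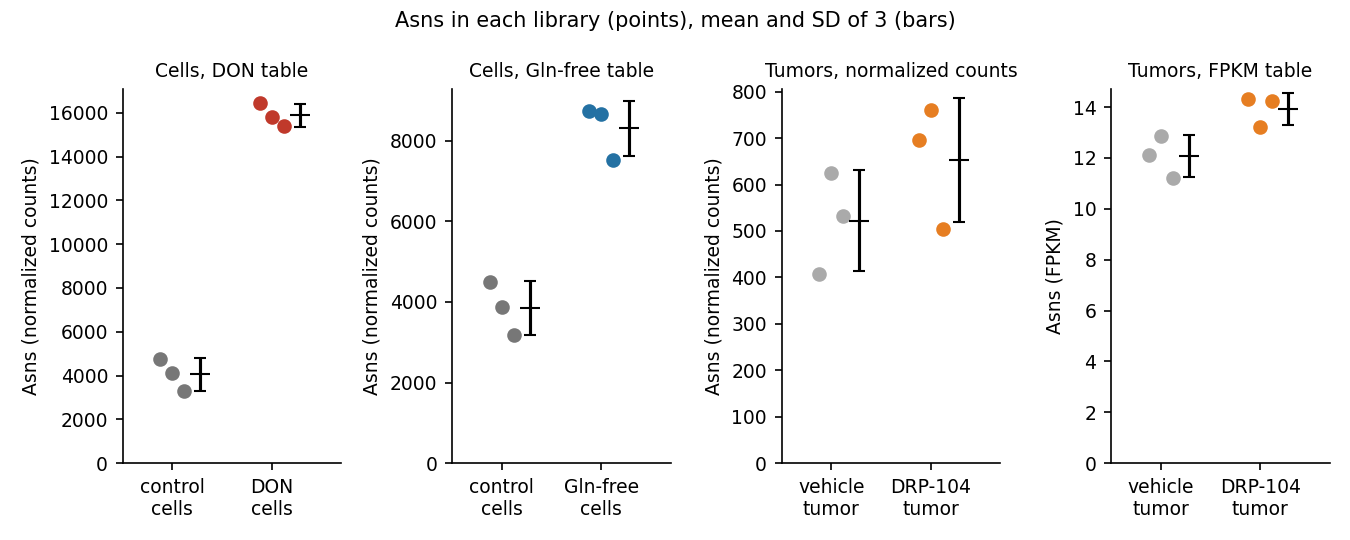
Asns in every library, as normalized counts in the DON, Gln-free and tumor tables and as FPKM in the tumors, with points for libraries and bars for the mean and SD of 3. The DON and Gln-free libraries all lie above their controls, normalized counts of DRP-104 and vehicle tumors overlap, and FPKM columns do not.

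The response of tumors to DRP-104 was smaller than that of cells to DON. The log2 difference of the effects was -1.66 (standard error 0.261, 95% interval -2.22 to -1.10, limma adjusted p = 0.000343), in a fit in which 14% of 15070 genes were called in this direction. Against the effect of Gln withdrawal the difference was -0.80 (standard error 0.263, 95% interval -1.36 to -0.23, limma adjusted p = 0.0300), where 18.1% of 14979 genes were called in this direction. This second difference did not hold under every setting. It lost the threshold with quantile normalization (limma adjusted p = 0.0609), with no filter on low values (0.0535), without the variance trend (0.0626), and when any of 6 single libraries was left out, namely vehicle tumor 2 (0.0740), control cells 3 (0.0723), Gln-free cells 1 (0.0699), Gln-free cells 2 (0.0688), vehicle tumor 3 (0.0590) or control cells 2 (0.0553). Both differences use the same tumors and controls. Agent, dose, route, schedule and time differ between cells and tumors. In addition, tumors hold host cells, and counts of cells and tumors may differ in unit. These differences cannot be told apart here.

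To set levels side by side, recovered reads were divided by gene length (2016 bases for Asns) and by the reads of the library in M. On this scale Asns averaged 263 ± 6.99 reads per kilobase and per M reads (RPKM) in DON cells (SD, n = 3), 141 ± 10.5 in Gln-free cells, 60.5 ± 8.64 in control cells, 17.1 ± 3.13 in DRP-104 tumors and 13.8 ± 2.46 in vehicle tumors. Neighbours in this order did not overlap, apart from DRP-104 tumors (13.8 to 20.01) and vehicle tumors (11.2 to 16.1). Control cells thus had 4.39 times the level of vehicle tumors, and the order was the same when all 15 libraries were scaled together, where that ratio was 4.99. Cells and tumors were prepared as separate experiments, their counts may differ in unit, and tumors hold host cells. This ratio is thus a description without a test. Among 20543 protein-coding genes, Asns ranked 211 by level in DON cells, 412 in Gln-free cells, 1119 in control cells, 3932 in DRP-104 tumors and 4728 in vehicle tumors.

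**Figure D2:**
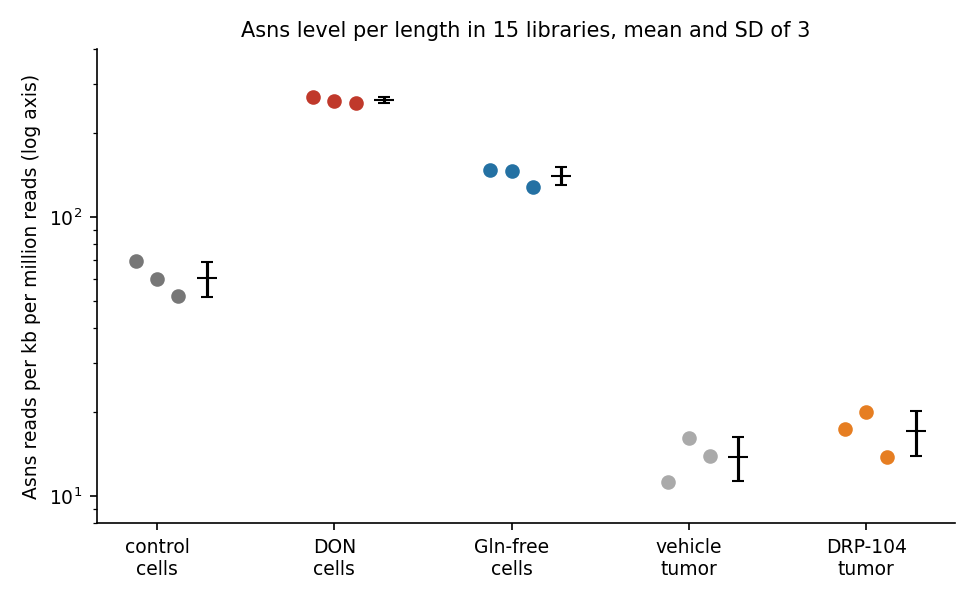
Asns RPKM on a log axis in the 15 libraries, with the mean and SD of 3 as bars. DON cells lie highest at a mean of 263, and the tumor groups lie lowest and overlap.

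The other glutamine amidotransferases, enzymes that DON can also bind, had lower log2 fold changes than Asns after DON and without Gln. Of 10 listed enzymes 9 passed the filter in cells, and apart from Asns 1 was called higher and 3 lower after DON, where 33.3% and 34.7% of all genes were, with a median log2 fold change of -0.18 beside 0.02 for all genes. Cad, which starts pyrimidine synthesis, was called higher after DON at 0.31 and lower without Gln at -0.68 on the log2 scale, and between the treatments it was 1.03 higher in DON cells (limma adjusted p = 1.9e-08). Ctps2, which makes CTP from UTP, fell by 1.43 after DON and fell by 1.90 without Gln, whereas its paralog Ctps had 0.09 and 0.10 and was called in neither, although under scaling to the library total it was called at 0.23 after DON (limma adjusted p = 0.0389). Pfas, an enzyme of purine synthesis, fell by 0.44 after DON and fell by 0.31 without Gln.

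Gfpt1, which opens the hexosamine pathway, had a log2 fold change of -0.22 after DON (limma adjusted p = 0.0447), a call lost under 7 of the 10 other settings and when control cells 2 (adjusted p = 0.124) or DON cells 1 (0.0663), 2 (0.146) or 3 (0.122) were left out, and it rose by 0.43 without Gln. Gmps, which makes GMP, had -0.13 after DON, a value whose sign flipped to 0.04 with quantile normalization, and rose by 0.46 without Gln. Ppat, the first enzyme of purine synthesis, had -0.15 and 0.03, and was called in neither. Nadsyn1, which makes NAD, had -0.29 after DON, which was -0.47 and called (adjusted p = 0.0148) when control cells 3 were left out, and was called lower without Gln at -0.46 (limma adjusted p = 0.0287). This call was lost with quantile normalization (adjusted p = 0.158), with scaling to the library total (0.0772), without the variance trend (0.0599), and when Gln-free cells 1 (0.0592) or 2 (0.122) or control cells 1 (0.0992) or 2 (0.114) were left out. Gfpt2, the second hexosamine enzyme, had 0 reads in all 9 culture libraries.

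By level per length, Asns ranked 1 among the 10 amidotransferases in control, DON and Gln-free cells. Ctps ranked 2 in all 3, at 35.4 ± 2.38 RPKM in control cells and 41.6 ± 3.49 in DON cells. In vehicle tumors Asns ranked 4, after Gfpt1 at 24.5 ± 7.10, Ctps at 18.9 ± 2.10 and Gmps at 16.2 ± 1.51. No amidotransferase was called in the tumors by limma, which called 0% of all genes there. Gfpt2 had 39.6, 30.0 and 53.9 normalized counts in DRP-104 tumors and 139, 224.5 and 93.4 in vehicle tumors. The groups did not overlap, as for 10.6% of all genes, and the log2 fold change was -1.81 (standard error 0.419, limma adjusted p = 0.916), and it was the amidotransferase that DESeq2 called. Its level is set beside the fibroblast and endothelial markers above, whose sums were lower in the same tumors. None of those markers was called by limma, and the part of these cells was not tested.

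**Figure D3:**
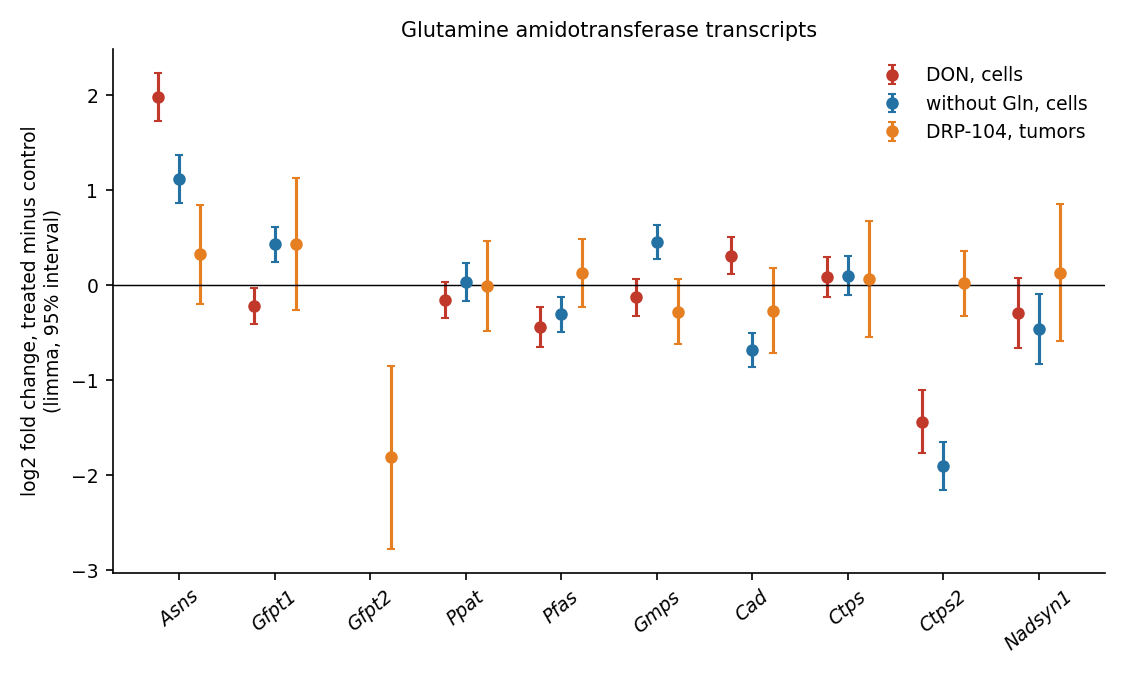
Log2 fold changes of the 10 glutamine amidotransferases with 95% limma intervals after DON and without Gln in cells and on DRP-104 in tumors. Asns has the highest value of the set after DON (1.99) and without Gln (1.12), and Gfpt2 is shown for tumors only, as it had no reads in cells.

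Of the enzymes that make or break down Gln, Glul and Gls2 fell in both treatments. Glul, Gln synthetase, fell from 10091 ± 1018 to 2592 ± 89.2 normalized counts after DON (SD, n = 3), with a log2 fold change of -1.96 (limma adjusted p = 5.0e-10), and fell by 1.80 without Gln. Gls2, a glutaminase, fell by 1.90 after DON and fell by 1.78 without Gln.

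Of 16 genes that handle asparagine and aspartate, 14 passed the filter, and 7 were called higher and 3 lower after DON, where 33.3% and 34.7% of all genes were, with a median log2 fold change of 0.16 beside 0.02 for all genes. With 14 genes tested, the counts are a description, and this list was not tested as a whole. Nars, the cytosolic asparaginyl-tRNA synthetase, uses the product of Asns. It had 36635, 37150 and 33956 normalized counts in DON cells and 10283, 9943 and 9658 in control cells. Its log2 fold change of 1.85 (standard error 0.0873, limma adjusted p = 4.3e-10) was the largest of the list, and without Gln it rose by 1.11. Nars2, its mitochondrial counterpart, rose by 0.90 and 0.95. Aga, a lysosomal enzyme that cuts the link between asparagine and sugars, rose by 0.99 after DON and had 0.04 without Gln.

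Asnsd1, which encodes a protein with an asparagine synthetase-like domain, was far less abundant than Asns, with 2.58 ± 0.162 RPKM in DON cells and 1.62 ± 0.363 in control cells (SD, n = 3). It had 179, 202 and 186 normalized counts after DON and 150, 99.9 and 142 in control cells. That log2 fold change of 0.55 was called (limma adjusted p = 0.0238), but not when control cells 2 (adjusted p = 0.106), DON cells 2 (0.0706) or DON cells 3 (0.0535) was left out. Without Gln it had -0.33 (limma adjusted p = 0.20).

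The carriers that move aspartate out of mitochondria went down after DON. Slc25a13 fell by 1.06 after DON and fell by 1.72 without Gln, and Slc25a12 fell by 0.91 after DON. Without Gln, Slc25a12 was called higher at 0.27 (limma adjusted p = 0.0227), a call lost with quantile normalization (adjusted p = 0.0517) and when Gln-free cells 1 (0.0639) or 2 (0.0954) were left out. Dars, the aspartyl-tRNA synthetase, had -0.21 after DON, which was -0.32 and called (limma adjusted p = 0.01998) when control cells 2 were left out, and rose by 0.52 without Gln. Adss, which spends aspartate to make AMP, had -0.29 after DON (limma adjusted p = 0.0070), lost with quantile normalization (0.258) and scaling to the library total (0.130), and -0.08 without Gln.

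The targets of the amino acid response moved mostly in one direction in cells. Of 34 listed genes 33 passed the filter, and 31 were called higher and 1 lower after DON, where 33.3% and 34.7% of all genes were, with a median log2 fold change of 1.60 beside 0.02 for all genes. Without Gln, 27 were called higher and 4 lower, beside 34.5% and 34.9% of all genes, with a median of 1.17 beside 0.01. Asns was not in this list, and 13 of the 33 members had a higher log2 fold change than Asns after DON and 17 did without Gln. Between the treatments, 22 members were called higher and 2 lower in DON cells, beside 31% and 32.3% of all genes, with a median difference of 0.51 beside the 0.90 of Asns.

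The highest values after DON were those of Ddit3 (CHOP, a transcription factor), at 4.64, and Aldh1l2, a mitochondrial one-carbon enzyme, at 3.79. They were followed by Trib3, a pseudokinase that restrains ATF4, at 3.67 and Ppp1r15a, which directs dephosphorylation of eIF2alpha, at 3.48. Without Gln the same genes had 4.48, 2.00, 3.09 and 3.77. At the other end, Ddit4, an inhibitor of mTORC1, fell by 2.01 after DON and fell by 2.97 without Gln. Slc7a3, Slc7a5 and Stc2 had -0.10, 0.23 and 0.31 after DON and 0.47, 0.28 and 0.34 without Gln. The call of Slc7a5 after DON was lost with no filter (limma adjusted p = 0.0713), without the variance trend (0.0921), and when DON cells 1 (0.137), 2 (0.0555) or 3 (0.121) or control cells 3 (0.05002) were left out, and that of Stc2 when DON cells 1 (0.0536) or 2 (0.101) or control cells 2 (0.0521) were. Without Gln, the call of Slc7a5 was lost when Gln-free cells 1 (adjusted p = 0.0577) were left out, and that of Stc2 when Gln-free cells 1 (0.0847) or 2 (0.06995) were. The sign of Slc7a3 flipped to 0.04 under scaling to the library total.

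Some members were called in opposite directions. Pck2, the mitochondrial form of an enzyme that turns oxaloacetate into phosphoenolpyruvate, had 9521, 9857 and 9426 normalized counts after DON and 4808, 4660 and 3631 in controls, a rise of 1.15 on the log2 scale. Without Gln it had 1724, 1873 and 1893 against 4531, 4401 and 3502, a log2 fold change of -1.17 (limma adjusted p = 6.2e-07). Asns and Pck2 thus rose together after DON and moved apart without Gln. Shmt2 and Phgdh, of one-carbon and serine metabolism, rose by 1.16 and 0.57 after DON, and without Gln had -0.24 and -0.25, calls that were each lost under scaling to the library total (limma adjusted p = 0.170 and 0.122), without the filter, without the variance trend, and when any of the 3 Gln-free libraries or control cells 1 or 2 was left out (adjusted p of 0.0777 to 0.155).

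**Figure D4:**
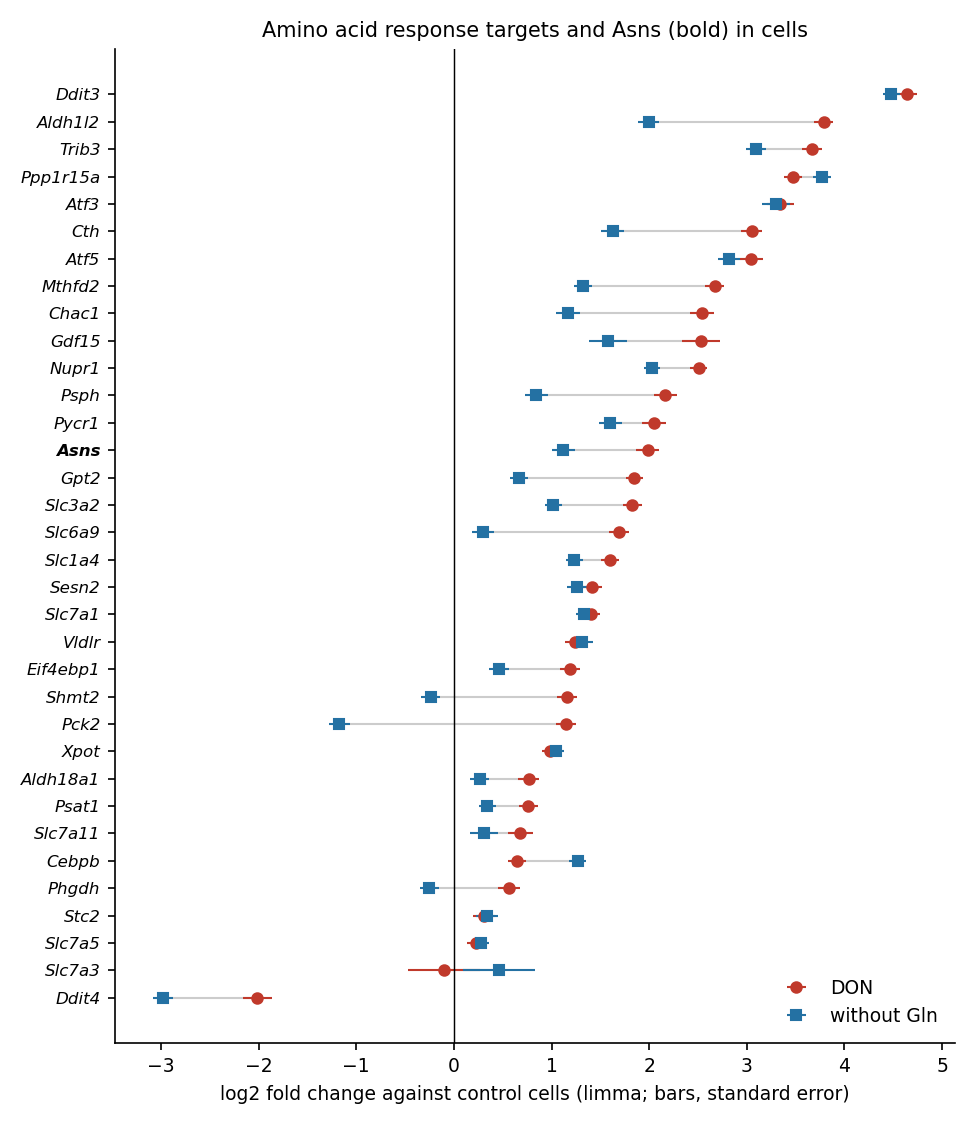
Log2 fold changes of 33 amino acid response targets and of Asns (bold) against control cells, after DON (circles) and without Gln (squares), with standard errors as bars. Asns sits at 1.99 after DON and 1.12 without Gln, Ddit3 is highest and Ddit4 lowest, and Pck2 lies on opposite sides of 0.

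In tumors none of the same 33 targets was called by limma, as was the case for all genes (0%). Their median log2 fold change on DRP-104 was 0.08 beside -0.01 for all genes, and 8 of them had a higher value than the 0.32 of Asns. For 27 of them the effect in tumors was called lower than that of DON in cells, where 14% of all genes were.

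Of 14 listed factors that act on Asns, 8 were called higher and 4 lower after DON, beside 33.3% and 34.7% of all genes. Without Gln 8 were called higher and 3 lower, beside 34.5% and 34.9%. Atf3, Cebpb, Ddit3 and Trib3, all called higher in both treatments, are also members of the amino acid response targets above. These lists thus share genes and are not separate. With 14 genes these counts are a description, and the list was not tested as a whole. Atf4, the main activator of Asns, had 28393, 28024 and 27693 normalized counts in DON cells and 9575, 8621 and 8342 in control cells, which is a log2 fold change of 1.67 (limma adjusted p = 1.3e-09). Without Gln it rose by 1.35 (adjusted p = 2.8e-08), and it was 0.35 higher in DON than in Gln-free cells (adjusted p = 0.00089). ATF4 is controlled at translation as well, which these counts do not measure.

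Among factors that bind the Asns promoter beside ATF4, Atf3 rose by 3.34 after DON and 3.30 without Gln, and Cebpb by 0.65 and 1.27. Zbtb1, a zinc finger activator of Asns, had 0.41 after DON (limma adjusted p = 0.0155), a call lost without the variance trend (adjusted p = 0.0751) and when control cells 1 (0.0859) or 2 (0.0543) or DON cells 1 (0.0537) or 2 (0.0581) were left out, and it rose by 1.55 without Gln. For Cebpb and Zbtb1 the order of the treatments was the reverse of that of Asns, with log2 differences of -0.59 and -1.11 between DON and Gln-free cells (both called). Trp53, encoding p53, a described repressor of Asns, rose by 1.18 and 1.15. Nfe2l2, encoding NRF2, fell by 0.72 after DON and had -0.10 without Gln, with a sign that flipped to 0.00456 under scaling to the library total.

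Of the kinases that phosphorylate eIF2alpha, Eif2ak4 (GCN2) fell from 1232 ± 30.9 to 433 ± 43.95 normalized counts after DON (SD, n = 3), with a log2 fold change of -1.51 (limma adjusted p = 4.5e-08), and fell by 1.09 without Gln. Its inhibitor Impact rose by 1.89 and 1.32, and its partner Gcn1 had -0.14 after DON, which was -0.20 and called (adjusted p = 0.0473) when control cells 3 were left out, and fell by 0.40 without Gln. Eif2ak1 (HRI) fell by 0.51 after DON and fell by 0.70 without Gln. Eif2ak2 (PKR) fell by 1.33 after DON and had -0.15 without Gln. Eif2ak3 (PERK) had -0.10 and 0.02 and was called in neither. Transcript levels do not show the activity of these kinases.

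Over the 9 culture libraries, the genes whose log2 values followed Asns most closely were Nars, Adat1, Slc3a2, Ndrg1 and Acot13. Likeness was the root-mean-square log2 difference after centring on the control mean, among 10430 genes with a mean of at least 100, and it was 0.13 for Nars and 0.16 for Acot13. Adat1 encodes a tRNA deaminase, Slc3a2 the heavy chain of amino acid exchangers, Ndrg1 a stress-induced cytosolic protein and Acot13 a thioesterase. Slc3a2 had 22104, 25403 and 21976 normalized counts after DON and 7039, 6714 and 5833 in controls, and 13106, 12643 and 11887 without Gln. Pearson's r with Asns was 0.99 for each of the 5, but it was at least 0.95 for 328 genes, since the libraries share 3 groups. The set depended on the controls: without control cells 1 only Adat1 was still among the 5 nearest, and without control cells 3 there were 3.

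Over the 6 tumors, the highest Pearson correlations with Asns were those of Esrp1 (0.97), a splicing factor of epithelial cells, Cyp21a1 (0.96), a steroid hydroxylase, Gpr137b (0.96), a lysosomal membrane protein, Car5b (0.95), a mitochondrial carbonic anhydrase, and Ncmap (0.95), a myelin-associated protein. Out of 10927 genes, 6 reached 0.95, and with 6 libraries these values describe the tumors only. Esrp1 had 469, 660 and 255 normalized counts in DRP-104 tumors and 73.3, 345 and 252 in vehicle tumors. As with Asns, DRP-104 tumor 2 was highest and vehicle tumor 1 lowest. Esrp1 was picked by its likeness to Asns over these tumors, so this is no further likeness. None of the 5 was called in the tumors. In cells, Car5b fell from 1181, 1354 and 931 normalized counts to 248, 218 and 218 after DON, against the direction of Asns.

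Of the genes next to Asns, only Sdhaf3 and C1galt1 stood well above the filter in cells, and they moved in opposite directions after DON. Of all genes, 33.3% were called higher and 34.7% lower after DON, and 34.5% and 34.9% without Gln. Tac1, at 109.3 kb toward lower coordinates, and Dlx5, at 793.1 kb, had 0 normalized counts in every culture library. Sdhaf3, an assembly factor of succinate dehydrogenase that lies 632.2 kb away in the same direction, had 415, 396 and 409 normalized counts after DON and 76.7, 62.4 and 101 in control cells. It rose by 2.36 on the log2 scale after DON (standard error 0.194, limma adjusted p = 1.1e-07) and by 1.38 without Gln (adjusted p = 8.0e-05). C1galt1, a glycosyltransferase 151.6 kb toward higher coordinates, fell by 1.09 after DON (adjusted p = 2.4e-05) and had 0.11 without Gln, where control cells decided the value: it was 0.34 and called (adjusted p = 0.00177) when control cells 3 were left out, and -0.028 when control cells 1 were. Rnps1-ps, 288.6 kb away, was near the filter and was called in neither comparison, and as a copy of Rnps1 it may share reads with its parent gene. Col28a1, at 304.6 kb, had at most 10.1 normalized counts in any culture library.

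**Figure D5:**
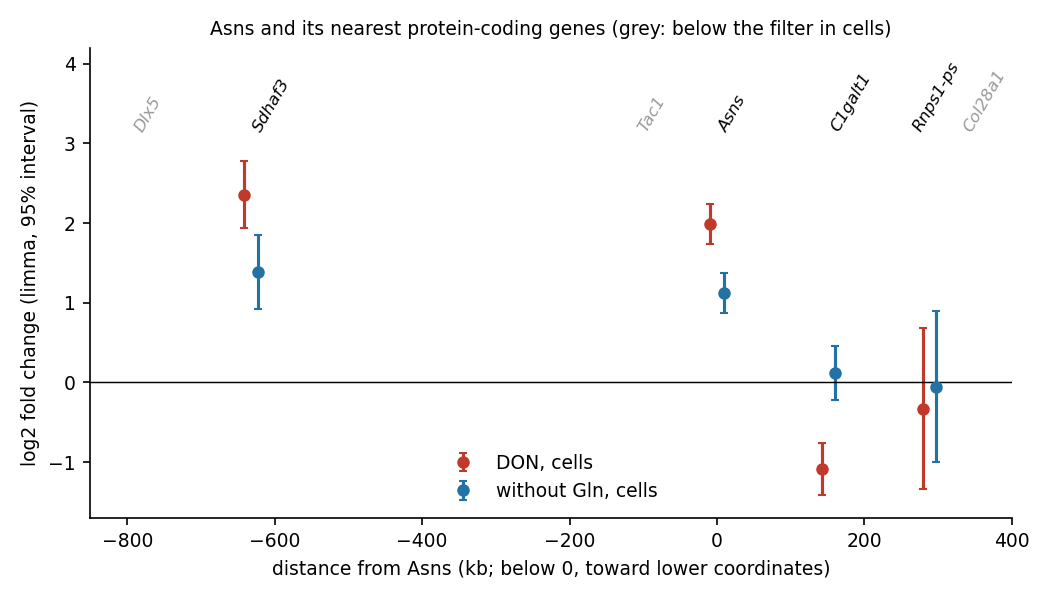
Log2 fold changes with 95% limma intervals of Asns and its 3 nearest protein-coding genes on either side against distance from Asns in kb, after DON and without Gln; grey names were under the filter in cells. Sdhaf3, 632.2 kb away, lies above 0 as Asns does, and C1galt1 lies below 0 after DON.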

How the data were processed

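Per the study's methods, RNA was purified by TRIzol and spin columns. Library preparation, HISAT2 alignment and DESeq2 were done by Novogene. The submitters' processing notes also name STAR 2.5, CASAVA and GRCm39 without a role, whereas coordinates in the authors' FPKM table are those of GRCm38. The counting tool and the use of strand are not given in the sources used here. The deposited signal holds counts that the authors scaled by the DESeq2 size factor of each library, within each table. Dividing by the worth of 1 read returned whole counts for at least 99.9866% of values in each library (tolerance 0.0051). Deposited FPKM values of the tumors could not be matched to single tumors and were used by group. Columns of the authors' own fold changes and p-values were not used. Control columns of the culture tables carry a name like that of the vehicle tumors and were assigned to control cells by their table.

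The test was limma 3.58.1 on log2(value + 1) (lmFit, eBayes with trend, R 4.3.3), over genes with a mean of at least 10, with Benjamini-Hochberg adjustment over all genes tested. The fit of DON against Gln-free cells used recovered reads of 9 libraries scaled together, and tumors were set against cells by an interaction contrast. Alternatives were edgeR 4.0.16 and DESeq2 1.42.0 on recovered reads, other normalizations, pseudocounts and filters, the FPKM table, and leaving out each library. Because most low counts in cells were even numbers, edgeR was also run on recovered culture reads divided by 2. Fits were tested on simulated data. Some results are not reported here. The gene, the lists and the rule for named genes (the amidotransferases, Glul, Gls2 and regulators, the ends of the other lists after DON, genes called in opposite directions, the 5 most alike genes, and the nearest neighbours) were chosen with earlier results of these data known. Likeness under other scalings and without single libraries was added after the data were seen. Plots were drawn with matplotlib 3.10.9.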

Additional observations from a re-analysis of the deposited data

Results flagged for a closer look

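The effect of treatment on Asns differed between tumors and cultured cells in the test of the difference itself. The effect of DRP-104 in tumors minus that of DON in cells was -1.66 on the log2 scale (adjusted p = 0.000343, limma), with an effect of 0.32 in tumors and 1.99 in cells. The effect in tumors minus that of Gln withdrawal in cells was -0.80 (adjusted p = 0.0300, limma), with an effect of 1.12 in cells. Every treated culture stood above its controls in both culture comparisons, whereas tumors of the treatment groups overlapped.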

How the results depend on the processing

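The rises of Asns after DON and without Gln and the difference between them kept their direction and their call in all 16, 16 and 19 alternatives. The size of the p-values depended on the variance trend: without it the limma adjusted p was 0.000143 after DON, 0.00116 without Gln and 0.000678 between the treatments. After DON the log2 fold change was 1.97 to 2.15 over 10 other settings and 1.84 to 2.11 when single libraries were left out, and without Gln it was 1.11 to 1.23 and 0.99 to 1.24. With culture reads divided by 2, edgeR gave 2.02 after DON, 1.11 without Gln and 0.91 between the treatments. With quantile normalization the median over all genes after DON went from 0.02 to 0.13. In the tumors Asns was called in none of 17 alternatives, with values of 0.16 to 0.50. The difference between tumors and DON in cells stayed called in all 19, at -1.83 to -1.48. That between tumors and Gln withdrawal lost its call in 9 of 19: it was -0.79 with quantile normalization, -0.80 with no filter and -0.80 without the variance trend, and -0.96 to -0.62 when single libraries were left out. The cause was not tested.

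Numbers shared by libraries were not taken to pair them. Deviations of same-numbered libraries correlated at -0.04 to 0.05 for DON, -0.13 to 0.13 without Gln, -0.46 to 0.05 in tumors and -0.05 to 0.26 between treatments. With 3 libraries per group such values cannot decide on pairing, since tumors of different numbers reached -0.45 and 0.58. With the replicate block, 9216 genes were called after DON, 9056 without Gln and 0 in the tumors, the log2 fold changes of Asns stayed at 1.99, 1.12 and 0.32, and no call of Asns changed.

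With all 15 libraries scaled together, the log2 ratio of the Asns level to control cells was 2.00 in DON cells and 1.10 in Gln-free cells, beside 2.12 and 1.22 per length. The 4 amino acid response targets called lower without Gln became 2 under scaling to the library total, with no filter and without the variance trend, and 2 to 4 when single libraries were left out. DESeq2 called 1 amidotransferase lower in the tumors, where limma called 0.

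Some values of genes that were not called changed sign. After DON these were, under scaling to the library total, Eif2ak3 (0.042), Gcn1 (0.0014), Gmps (0.015) and Slc7a3 (0.04), and under quantile normalization Gcn1 (0.055) and Gmps (0.044). Without Gln they were Adss (0.027), Nfe2l2 (0.0046) and Rnps1-ps (0.044) under scaling to the library total, and Ppat (-0.023) and Rnps1-ps (0.087) under quantile normalization. In the FPKM table of tumors, Car5b had -0.27 or -0.29, Cyp21a1 -0.19 or -0.23 and Gpr137b -0.071 or -0.078 with a pseudocount of 1 or 0.1. Leaving out single libraries gave values on both sides of 0 for Slc7a3 (-0.39 to 0.087) after DON, for Aga (-0.012 to 0.087), C1galt1 (-0.028 to 0.34), Eif2ak2 (-0.31 to 0.062), Eif2ak3 (-0.063 to 0.13), Ppat (-0.015 to 0.099) and Rnps1-ps (-0.29 to 0.18) without Gln, and for Ctps (-0.058 to 0.083) between the treatments.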
